A study of Mus musculus with 4 samples.

Results

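Transcripts of 10 genes that mark naive, memory and recently activated T cells were followed in mouse bone marrow by single-cell RNA sequencing. The genes were Tcf7, Lef1, Ccr7, Il7r, S1pr1, Klf2, Cd44, Cd69, Il2rb and Ikzf2, 10 of the 31053 genes in the count tables. They and the gene lists below were chosen by name with earlier results of these data known, so their shares of calls are descriptions and not tests. Their levels were read in cells that carried at least 3 unique molecular identifiers (UMIs, each standing for 1 captured mRNA molecule) of Cd3d, Cd3e, Cd3g, Trac and Trbc2 summed, the T cell receptor complex genes. A T cell was placed with the CD8 cells when it had a UMI of Cd8a or Cd8b1 and none of Cd4, and with the CD4 cells in the reverse case. The CD8 cells numbered 136 in TWT, 802 in DKO, 95 in TKO and 117 in IL-6 KO marrow, and the CD4 cells 50, 42, 24 and 29 in the same order. Of the T cells, 223, 245, 126 and 226 had neither co-receptor and 2, 3, 1 and 0 had both.

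Each genotype gave 1 library of femur and tibia marrow depleted of red cells, from mice on the C57/B6 background labelled as 12 months old. TWT mice were wild type at all 3 loci (IL6+/+, mDia1+/+, miR146a+/+). IL-6 KO mice were IL6-/-, mDia1+/+, miR146a+/+, DKO mice were IL6+/+, mDia1-/-, miR146a-/-, and TKO mice were IL6-/-, mDia1-/-, miR146a-/-. The knockouts are constitutive, so every cell of the animal carries them, and the study describes the aged DKO animals as moribund with leukemia. The sources used here do not say how many mice made up 1 library. With 1 library per genotype there was no replicate and no test between genotypes. All intervals are exact 95% intervals that cover counting error only.

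A naive T cell circulates between blood and lymphoid organs. TCF-1 and LEF-1, the products of Tcf7 and Lef1, are transcription factors that hold T cells in the naive and stem-like memory states. KLF2 keeps T cells quiescent and drives S1pr1, the receptor for the lipid that draws T cells out of lymphoid tissue, while CCR7 draws them in and the IL-7 receptor keeps them alive. After antigen or cytokine contact a T cell shows CD69, which holds the S1P receptor inside the cell. Memory cells carry CD44 and CD122, the β chain of the IL-2 and IL-15 receptors encoded by Il2rb, and bone marrow is a known home of memory CD8 T cells. Ikzf2 encodes Helios, a zinc-finger factor of many regulatory T cells and of some innate-like T cells.

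The libraries held between 61292684 and 85145074 UMIs over 8423 to 10866 barcodes, of which 6794 to 9627 passed a filter on genes found per barcode (500 to 4000) and on mitochondrial UMIs (not above 15%). Of the T cells 29, 23, 14 and 26 held exactly the 3 UMIs the gate requires (TWT, DKO, TKO, IL-6 KO), and 48, 76, 34 and 70 cells with 2 such UMIs stayed outside it. Diaph1, the gene of mDia1, had 163 CPM (UMIs of the gene per 1e+06 UMIs) in TWT and 178 in IL-6 KO against 11.4 in DKO and 12.4 in TKO. Il6 counts went against the labels, with 0.807 CPM in TWT and 0.235 in DKO but 8.60 in the library labelled TKO and 9.89 in the library labelled IL-6 KO. Reads from the 3′ end do not tell whether a transcript is intact, so they do not check that allele. The library labelled IL-6 KO also held 49030 UMIs of Xist, which is made from the inactive X, against 7 or fewer in each of the others and 0 UMIs of the Y-linked gene Ddx3y against at least 2729, so it differed from them in sex as well. Pairs of libraries shared between 19 and 36 cell barcodes. Among the CD8 cells, 110 of 136, 750 of 802, 65 of 95 and 85 of 117 had a UMI of Cd8b1 (TWT, DKO, TKO, IL-6 KO), and 19, 60, 28 and 27 also carried at least 3 UMIs of the natural killer (NK) cell genes Ncr1, Klrb1c, Klre1 and Klra8. The neutrophil genes S100a8 and S100a9, which T cells do not make, took 2.04%, 2.46%, 4.20% and 1.20% of the UMIs of the CD8 cells and 7.0%, 3.23%, 2.44% and 0.935% of those of the CD4 cells. In a bulk sum over few cells, fewer cells that express a gene and less RNA per cell cannot be told apart, so shares of cells are given beside the sums.

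In CD8 cells the DKO library differed from TWT in some of the naive genes, in Ikzf2 and in Cd69. Calls were made on summed levels, with 1 CPM added, that lay 2-fold or more apart, among genes with 50 CPM or more in one of the libraries compared and a joint total of at least 30 UMIs. All 10 genes passed the minimum. Tcf7, Lef1, S1pr1 and Ikzf2 were called lower in DKO and Cd69 higher, 5 of 10 called against 12.4% of the 2891 genes measured. By direction, 4 of 10 were lower against 5.85% of all genes, and 1 was higher against 6.54%. The median log2 ratio of the 10 genes was -0.92, beside 0.07 over all genes measured. Il2rb (0.513-fold) and Ccr7 (0.537-fold) were just short of a call, and S1pr1 (0.448-fold) was just past it.

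**Figure D1:**
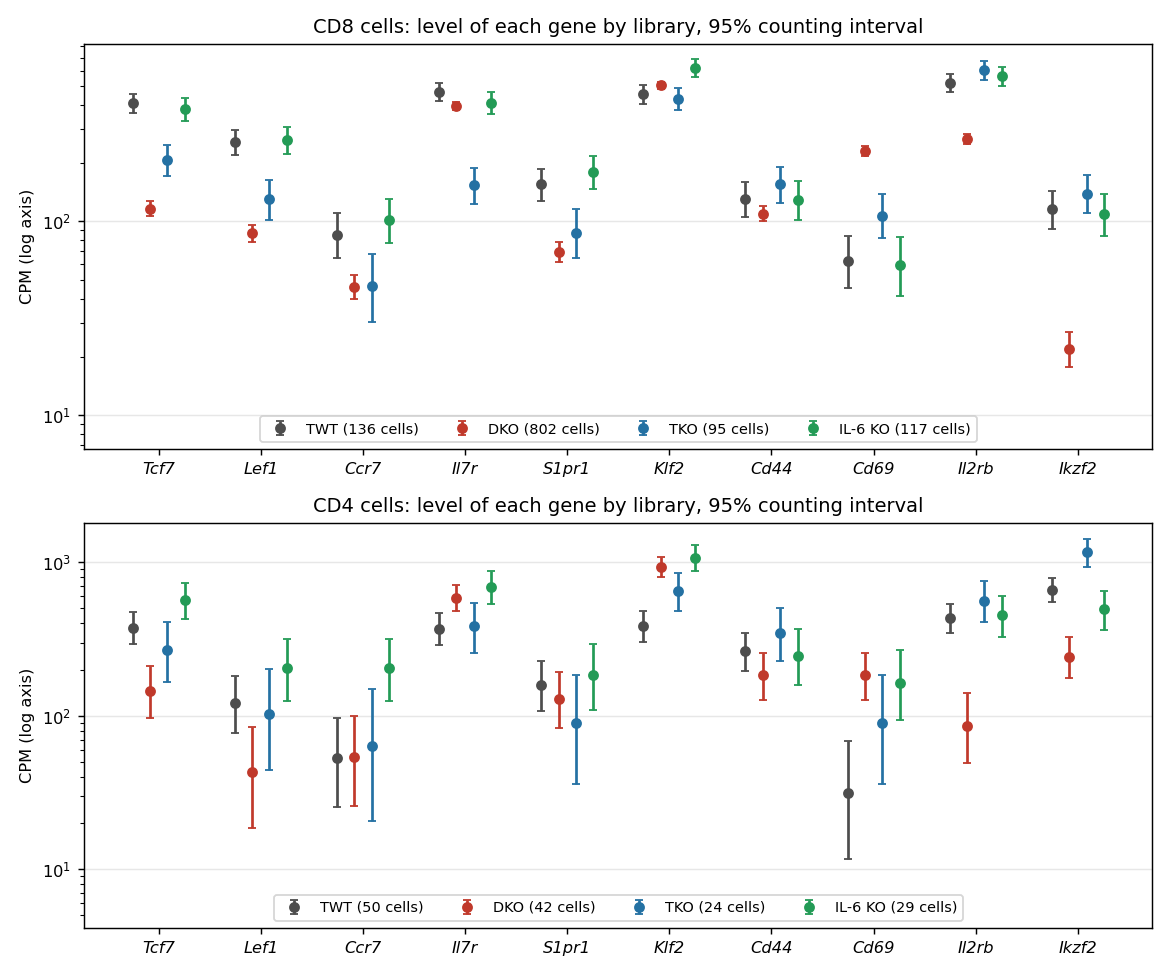
Level of each of the 10 genes in CPM (log axis) in CD8 cells (top) and CD4 cells (bottom) of the 4 libraries, as points with exact 95% Poisson intervals. In CD8 cells the DKO points for Tcf7, Lef1, S1pr1, Il2rb and Ikzf2 lie below the TWT and IL-6 KO points and the DKO point for Cd69 lies above all others, with intervals that do not overlap those of TWT and IL-6 KO.

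The other comparisons called fewer of the genes in CD8 cells. Between DKO and TKO, which differ by label in IL-6 alone, 9 genes were measured and 4 were called, against 7.54% of 2904 genes. Il7r and Cd69 were higher in DKO, as were 2.62% of all genes, and Il2rb and Ikzf2 lower, as were 4.92%. Between TKO and TWT 1 of 10 was called, Il7r lower in TKO, against 3.95% of 2858 genes, of which 3.04% were higher and 0.910% lower. Between IL-6 KO and TWT none of 10 was called, against 2.14% of 2756 genes. The TWT library serves in 3 of these comparisons and the DKO library in 2, so they are not independent of each other.

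In CD4 cells the counts were small, and 6 of the 9 genes measured were called between DKO and TWT, against 21.6% of 1766 genes. Tcf7, Lef1, Il2rb and Ikzf2 were lower in DKO, as 4 of 9 genes against 9.85% of all, and Klf2 and Cd69 higher, as 2 of 9 against 11.8%. Between DKO and TKO 3 of 8 were called, Cd69 higher and Il2rb and Ikzf2 lower in DKO, against 21.7% of 1213 genes, of which 13.1% were higher and 8.57% lower. Between TKO and TWT 0 of 8 were called, against 9.65% of 1223 genes. Between IL-6 KO and TWT Ccr7 and Klf2 were called higher in IL-6 KO, 2 of 9 against 10.6% of 1295 genes, of which 3.71% were higher and 6.87% lower.

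**Figure D2:**
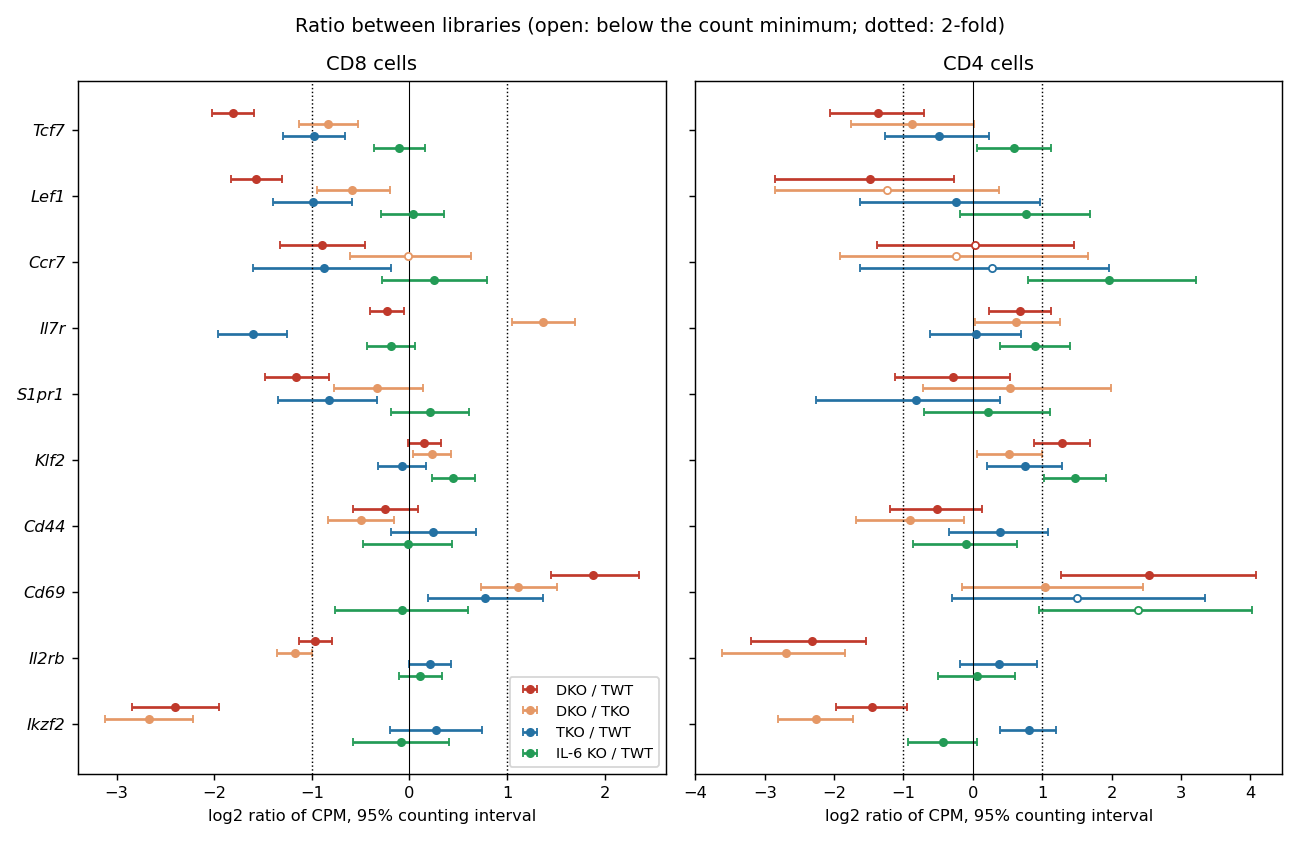
Log2 ratio of CPM between libraries for the 10 genes in CD8 cells (left) and CD4 cells (right), as points with exact 95% intervals that cover counting error only, for DKO to TWT, DKO to TKO, TKO to TWT and IL-6 KO to TWT. Dotted lines mark 2-fold, and open points lie under the minimum of CPM or UMIs. The DKO points of Ikzf2 and Il2rb lie left of 0 against both TWT and TKO in both cell types, and those of Cd69 lie right of 0. The Cd69 interval of DKO to TKO in CD4 cells spans 0.

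Tcf7 (ENSMUSG00000000782, GRCm38 chromosome 11, 52252371 to 52283014, minus strand) had 407 CPM in TWT CD8 cells (361 to 457), 116 in DKO (106 to 127), 207 in TKO (171 to 248) and 379 in IL-6 KO (331 to 432). The DKO level was 0.286-fold that of TWT (0.247 to 0.332) and 0.562-fold that of TKO (0.458 to 0.693). TKO lay between the others, at 0.509-fold of TWT (0.406 to 0.633), and the TWT and IL-6 KO intervals overlapped. In CD4 cells Tcf7 had 374 CPM in TWT, 146 in DKO, 268 in TKO and 565 in IL-6 KO, and DKO was again the lowest, at 0.389-fold of TWT (0.240 to 0.614). This call rested on 27 UMIs in DKO and 71 in TWT, and without the cells that also passed the gate of another lineage the log2 ratio was -0.92, short of a call.

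Lef1 (ENSMUSG00000027985, chromosome 3, 131110471 to 131224356, plus strand) followed Tcf7 closely in CD8 cells. Its levels were 257 CPM in TWT (221 to 298), 86.9 in DKO (78.3 to 96.2), 130 in TKO (102 to 164) and 263 in IL-6 KO (223 to 308). DKO was 0.338-fold of TWT (0.282 to 0.406) and 0.668-fold of TKO (0.518 to 0.870), and TKO was 0.506-fold of TWT (0.380 to 0.667). TKO thus missed the 2-fold limit narrowly for both factors. In CD4 cells Lef1 had 121 CPM in TWT (23 UMIs), 43.2 in DKO (8 UMIs), 102 in TKO (8 UMIs) and 205 in IL-6 KO (20 UMIs). DKO was at 0.356-fold of TWT (0.138 to 0.825), and DKO and TKO together had too few UMIs to be measured.

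Ccr7 (ENSMUSG00000037944, chromosome 11, 99144196 to 99155077, minus strand) had 85.3 CPM in TWT CD8 cells (65.1 to 110), 45.8 in DKO (39.6 to 52.6), 46.4 in TKO (30.3 to 67.9) and 102 in IL-6 KO (77.8 to 131). The ratio of DKO to TKO was 0.987 (0.654 to 1.55), with both under the minimum of 50 CPM, and both lay below TWT by less than 2-fold. In CD4 cells Ccr7 had 10, 10, 5 and 20 UMIs, and the call of IL-6 KO above TWT (3.9-fold, 1.74 to 9.32) rested on 20 UMIs against 10.

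S1pr1 (ENSMUSG00000045092, chromosome 3, 115710433 to 115715072, minus strand) was lower in DKO CD8 cells than in TWT. It had 155 CPM in TWT (127 to 187), 69.5 in DKO (61.8 to 77.8), 87.4 in TKO (64.7 to 116) and 180 in IL-6 KO (147 to 218). DKO was 0.448-fold of TWT (0.359 to 0.563), and the DKO and TKO intervals overlapped. In CD4 cells its levels were 158, 130, 89.2 and 185 CPM, and no comparison was called.

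Klf2 (ENSMUSG00000055148, chromosome 8, 72319033 to 72321656, plus strand), the factor known to drive S1pr1, did not go with it in CD8 cells. It had 452 CPM in TWT (404 to 505), 503 in DKO (482 to 525), 430 in TKO (377 to 488) and 618 in IL-6 KO (556 to 685), and DKO was 1.11-fold of TWT (0.989 to 1.26). Over the 15 alternatives this log2 ratio ran from -0.33 to 0.20, so its sign depended on the setting, and none called it. In CD4 cells Klf2 had 385 CPM in TWT (302 to 484), 934 in DKO (800 to 1084), 650 in TKO (484 to 855) and 1068 in IL-6 KO (873 to 1294). DKO was 2.43-fold of TWT (1.84 to 3.24) and IL-6 KO 2.78-fold (2.04 to 3.80), so the TWT level was the low one. Klf2 was also abundant outside T cells, and there DKO was the highest library. Over all filtered cells it had 280 CPM in TWT, 890 in DKO, 370 in TKO and 265 in IL-6 KO, in neutrophils 226, 690, 322 and 204, and in B cells 591, 1887, 983 and 549. Free RNA was estimated as the profile summed over all barcodes of a library, scaled to the S100a8 and S100a9 UMIs of the class. With this estimate subtracted, the Klf2 log2 ratio of DKO to TWT in CD4 cells was 0.86, under the 2-fold limit.

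Il7r (ENSMUSG00000003882, chromosome 15, 9505788 to 9530176, minus strand) set the TKO library apart in CD8 cells. Its levels were 465 CPM in TWT (416 to 518), 396 in DKO (377 to 415), 153 in TKO (123 to 189) and 408 in IL-6 KO (358 to 463). TKO was 0.330-fold of TWT (0.257 to 0.419), and DKO was 2.58-fold of TKO (2.08 to 3.24) and 0.851-fold of TWT (0.756 to 0.961). Both calls ended when the cells that also passed an NK, B, plasmacytoid dendritic, monocytic or neutrophil gate were left out, which kept 55 of 95 TKO cells. The log2 ratio then was -0.97 for TKO to TWT and 0.74 for DKO to TKO. In CD4 cells Il7r had 369, 588, 382 and 688 CPM, and in cells with neither co-receptor 273, 587, 187 and 307, with no call in CD4 cells.

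Il2rb (ENSMUSG00000068227, chromosome 15, 78479256 to 78495271, minus strand) was lowest in DKO in both cell types. In CD8 cells it had 519 CPM in TWT (467 to 575), 266 in DKO (251 to 282), 601 in TKO (539 to 669) and 560 in IL-6 KO (502 to 624). DKO was 0.513-fold of TWT (0.455 to 0.578), just short of a call, and 0.443-fold of TKO (0.392 to 0.501). NK cells carry much Il2rb, with 811 to 1561 CPM in the 4 libraries, and 28 of 95 TKO but 60 of 802 DKO CD8 cells also passed the NK gate. The Il2rb call of DKO against TKO (log2 ratio -1.17) ended without those cells, at -0.97, and with 2 co-receptor UMIs required, at -0.91. In CD4 cells Il2rb had 432 CPM in TWT (344 to 537), 86.4 in DKO (49.4 to 140), 561 in TKO (407 to 753) and 452 in IL-6 KO (328 to 607). The DKO level rested on 16 UMIs and was 0.200-fold of TWT (0.109 to 0.344) and 0.154-fold of TKO (0.0811 to 0.278).

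Ikzf2 (ENSMUSG00000025997, chromosome 1, 69531214 to 69687245, minus strand) had the log2 ratio farthest from 0 of the 10 genes between DKO and TWT in CD8 cells, and was lower in DKO. It had 115 CPM in TWT (91.5 to 143), 21.8 in DKO (17.7 to 26.7), 139 in TKO (110 to 174) and 109 in IL-6 KO (83.7 to 139). The DKO level was 0.190-fold of TWT (0.139 to 0.259) and 0.157-fold of TKO (0.115 to 0.215), and the other 3 intervals overlapped each other. In CD4 cells Ikzf2 had 664 CPM in TWT (553 to 791), 243 in DKO (177 to 325), 1160 in TKO (934 to 1424) and 493 in IL-6 KO (363 to 654). DKO was 0.366-fold of TWT (0.254 to 0.518) and 0.209-fold of TKO (0.143 to 0.303), the former no longer called when 2 UMIs of Cd4 were required (log2 ratio -0.77, with 10 DKO and 15 TWT cells left). Within each library Ikzf2 was lower in CD8 than in CD4 cells, from 0.0899-fold in DKO (0.0624 to 0.131) to 0.220-fold in IL-6 KO (0.149 to 0.328).

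Regulatory T cells, which express Foxp3, are a known source of Helios. CD4 cells with a Foxp3 UMI were 8 of 50 in TWT, 8 of 42 in DKO, 9 of 24 in TKO and 7 of 29 in IL-6 KO. In them Ikzf2 had 1517 CPM in TWT (1098 to 2044), 527 in DKO (344 to 772), 2555 in TKO (1976 to 3251) and 1209 in IL-6 KO (775 to 1799). In the CD4 cells without a Foxp3 UMI it had 514, 140, 475 and 310 CPM. DKO was the lowest in both fractions. Il2rb was also lowest in DKO, with 776, 101, 736 and 856 CPM in cells with a Foxp3 UMI and 372, 80.9, 475 and 348 CPM in those without, although 5 UMIs lay behind the DKO value with Foxp3.

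The microRNA miR-146a is absent by label from DKO and TKO mice and present in TWT and IL-6 KO mice, so its mature sequence (mmu-miR-146a-5p from RefSeq, GRCm38.p6 chr11:43374435-43374456, minus strand) is shown with its seed, bases 2 to 8, in capitals, and below it the matches to the seed in the members' 3′ untranslated regions, with the 7 matching bases in capitals.
mmu-miR-146a-5p: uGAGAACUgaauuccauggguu
Ikzf2, bases 1524 to 1530: tgatctttgtgAGTTCTCaattgtttttt
Ikzf2, bases 5140 to 5146: tccacataagcAGTTCTCagtgaaccggg
Il2rb, bases 2082 to 2088: gagaaggattcAGTTCTCtttcaatgatc
The motif AGTTCTC was searched on the transcript strand of the longest annotated 3′ untranslated region of each gene, 7554 bases in Ikzf2 and 2220 in Il2rb. Both Ikzf2 matches were followed by A and the Il2rb match was not. The other 8 members held no match, and 11.2% of the 21020 genes with such a region held at least 1. DKO and TKO both lack the microRNA by label, and these 2 genes were lower in DKO than in TKO. In CD8 cells TKO was at 1.21-fold of TWT for Ikzf2 (0.874 to 1.67) and 1.16-fold for Il2rb (0.996 to 1.35). In CD4 cells TKO was at 1.75-fold of TWT for Ikzf2 (1.32 to 2.30) and 1.30-fold for Il2rb (0.878 to 1.89). Whether loss of the microRNA has a part in any of these levels was not tested. A match is a description of the sequence and not a site shown to be used.

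Cd44 (ENSMUSG00000005087, chromosome 2, 102811141 to 102901665, minus strand), the adhesion receptor that memory T cells carry at high level, was not called in any comparison of CD8 or CD4 cells. CD8 cells had 131 CPM in TWT (105 to 160), 110 in DKO (100 to 120), 155 in TKO (124 to 191) and 129 in IL-6 KO (102 to 162). DKO was at 0.838-fold of TWT (0.669 to 1.06). In CD4 cells Cd44 had 264, 184, 344 and 246 CPM, with DKO at 0.533-fold of TKO (0.312 to 0.919), a ratio that was called lower under 3 of 14 alternatives (log2 down to -1.23). Each library had less in CD8 than in CD4 cells, at 0.451-fold to 0.598-fold. Neutrophils also express Cd44, at 190 CPM in DKO and 334 to 365 in the others.

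Cd69 (ENSMUSG00000030156, chromosome 6, 129267325 to 129275436, minus strand), the early activation receptor, was higher in DKO than in TWT in both cell types. CD8 cells had 62.6 CPM in TWT (45.5 to 84.0), 231 in DKO (216 to 245), 107 in TKO (81.7 to 138) and 59.4 in IL-6 KO (41.4 to 82.7). DKO was 3.68-fold of TWT (2.72 to 5.10) and 2.15-fold of TKO (1.66 to 2.84), while TKO was 1.71-fold of TWT (1.14 to 2.58). The Cd69 call against TKO was close to the limit and was lost with free RNA subtracted, at a log2 ratio of 0.96, and with cells thinned before gating, at 0.98. CD4 cells had 31.6 CPM in TWT (6 UMIs), 184 in DKO (34 UMIs), 89.2 in TKO (7 UMIs) and 164 in IL-6 KO (16 UMIs). DKO was 5.80-fold of TWT (2.41 to 16.9), and its 2.06-fold ratio to TKO (0.898 to 5.50) lost its call under 4 of 14 alternatives, with a log2 ratio of 0.79 without the cells that passed the neutrophil gate. B cells also had more Cd69 in DKO, with 163 CPM (141 to 188) against 57 in TWT, 95.5 in TKO and 47.3 in IL-6 KO, and neutrophils had 2.6 CPM in TWT and 9.0 in DKO.

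The share of cells with a UMI of each gene was compared after each cell was thinned to 2000 UMIs, which left out 2 TWT, 41 DKO, 3 TKO and 4 IL-6 KO CD8 cells. Median UMIs per CD8 cell were 4850, 4400.5, 5027 and 4779 before thinning. Tcf7 was found in 50.7% of TWT CD8 cells (42.0 to 59.5), 21.8% of DKO (18.9 to 24.9), 28.3% of TKO (19.4 to 38.6) and 48.7% of IL-6 KO cells (39.2 to 58.3). Without thinning the shares were 79.4%, 39.0%, 58.9% and 73.5%. In neutrophils, thinned likewise (medians of 5083 to 8292.5 UMIs before), the Tcf7 share was at most 0.117%, and in B cells (medians of 2388.5 to 2754.5) at most 0.664%. The part of free RNA and of doublets in the CD8 shares was not tested.

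Cd69 and Ikzf2 differed in the same way as their sums. Cd69 was found in 10.4% of thinned TWT CD8 cells (5.83 to 16.9), 34.8% of DKO (31.4 to 38.3), 18.5% of TKO (11.1 to 27.9) and 11.5% of IL-6 KO cells (6.27 to 18.9), against 0.325% to 1.66% of neutrophils, and without thinning in 23.5%, 56.2%, 42.1% and 23.1%. Ikzf2 was found in 13.4%, 4.6%, 19.6% and 11.5% of thinned CD8 cells, against at most 0.225% of neutrophils, and without thinning in 21.3%, 7.48%, 33.7% and 26.5%. The Il7r share was 44.0% in TWT, 44.4% in DKO and 44.2% in IL-6 KO CD8 cells, and 25% in TKO (16.6 to 35.1). Without thinning these were 67.6%, 60.6%, 65.8% and 34.7%.

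In CD4 cells, whose median UMIs were 2557.5, 2779.5, 2966 and 2877, thinning left out 13 TWT, 6 DKO, 2 TKO and 2 IL-6 KO cells, and the intervals were wide. Ikzf2 was found in 59.5% of thinned TWT CD4 cells (42.1 to 75.2), 25% of DKO (12.1 to 42.2), 63.6% of TKO (40.7 to 82.8) and 40.7% of IL-6 KO cells (22.4 to 61.2), and without thinning in 62.0%, 40.5%, 62.5% and 48.3%. Cd69 was found in 5.41% of TWT (0.661 to 18.2), 33.3% of DKO (18.6 to 51.0), 9.09% of TKO (1.12 to 29.2) and 22.2% of IL-6 KO cells (8.62 to 42.3), and without thinning in 12.0%, 42.9%, 20.8% and 27.6%. The DKO and TWT intervals of Cd69 did not overlap, and those of Ikzf2 overlapped at their ends. The IL-6 KO interval of Cd69 overlapped those of both DKO and TWT. Of the members, Klf2 and Cd44 were found in 38.7% to 66.2% and 35.1% to 57.2% of thinned neutrophils, which express both, so neutrophils gave no background level for these 2 genes.

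**Figure D3:**
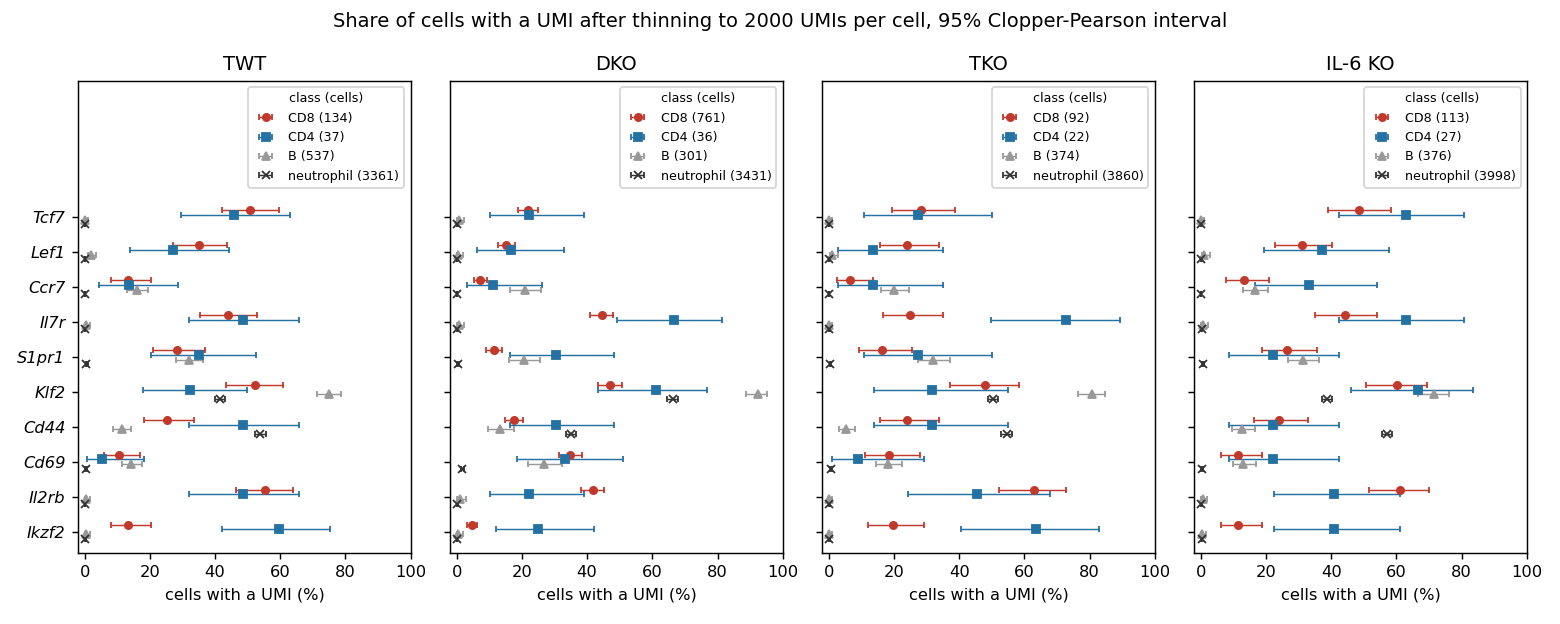
Percent of cells with at least 1 UMI of each gene after thinning to 2000 UMIs per cell, in CD8 cells, CD4 cells, B cells and neutrophils of each library, with exact 95% Clopper-Pearson intervals. Tcf7, Lef1, Il7r, Il2rb and Ikzf2 are near 0 in B cells and neutrophils, Ccr7, S1pr1 and Cd69 are near 0 in neutrophils, and Tcf7 is at 50.7% of CD8 cells in TWT and 21.8% in DKO.

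Tcf7, Lef1, Ccr7 and S1pr1 were also read together in each CD8 cell. All 4 had lower sums in DKO than in TWT, and Klf2 and Il7r, whose sums were closer, were not among them, so the shares describe these 4 genes only. Of the thinned CD8 cells, 24.6% in TWT (17.6 to 32.8), 58.1% in DKO (54.5 to 61.6), 50% in TKO (39.4 to 60.6) and 25.7% in IL-6 KO (17.9 to 34.7) had no UMI of any of the 4. Most TWT and IL-6 KO cells had a UMI of at least 1 of them. In DKO, S1pr1 was found in 11.3% of the 265 cells with a Cd69 UMI and in 11.3% of the 496 without, and Tcf7 in 21.1% and 22.2%. Cells with and without Cd69 UMIs therefore had close shares of both genes in DKO at this depth. In the other libraries 13 to 17 cells had a Cd69 UMI, too few for such a comparison.

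Cells with a Lef1 or Ccr7 UMI made up 41.0% of thinned CD8 cells in TWT (32.6 to 49.9), 20.2% in DKO (17.4 to 23.3), 28.3% in TKO (19.4 to 38.6) and 37.2% in IL-6 KO (28.3 to 46.8). In TWT, Il2rb had 327 CPM in the cells with such a UMI (229 to 453) and 652 in those without (532 to 791). In TKO the levels were 404 and 780 CPM and in IL-6 KO 369 and 775. DKO had no such step, at 305 CPM with (247 to 373) and 304 without (274 to 337). Cells of the DKO library without a Lef1 or Ccr7 UMI thus held less Il2rb than those of the other libraries. Cells that also passed the NK gate were kept in these fractions. Before thinning they were 19 of 136 TWT, 60 of 802 DKO, 28 of 95 TKO and 27 of 117 IL-6 KO CD8 cells. Their part in the Il2rb levels, and in those of Il7r below, was not tested.

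Tcf7 had a step in DKO, from 188 CPM with a Lef1 or Ccr7 UMI (143 to 243) to 120.3 without (102 to 141), and a larger one in TKO, from 385 (235 to 594) to 121 (69.3 to 197). IL-6 KO had one as well, from 583 (432 to 771) to 317 (231 to 424), and in TWT the intervals of its 464 and 418 CPM overlapped. Il7r in TKO had 26 UMIs in the 26 cells with such a UMI (327 to 733 CPM) and 12 UMIs in the 66 cells without (90.9 CPM, 47.0 to 159). In TWT it had 58 UMIs in 55 cells (400.4 to 682 CPM) and 79 UMIs in 79 cells (396 to 623 CPM). Cd69 in DKO was at 289 CPM with (232 to 356) and 255 without (228 to 285), both above the 54.5 and 69.6 CPM of TWT. The difference in Cd69 between the DKO and TWT libraries was thus present in both fractions. Gzmk, a granzyme of memory CD8 cells, had 156 CPM in DKO cells with a Lef1 or Ccr7 UMI and 336 in those without, against 36.4 and 120 in TWT.

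**Figure D4:**
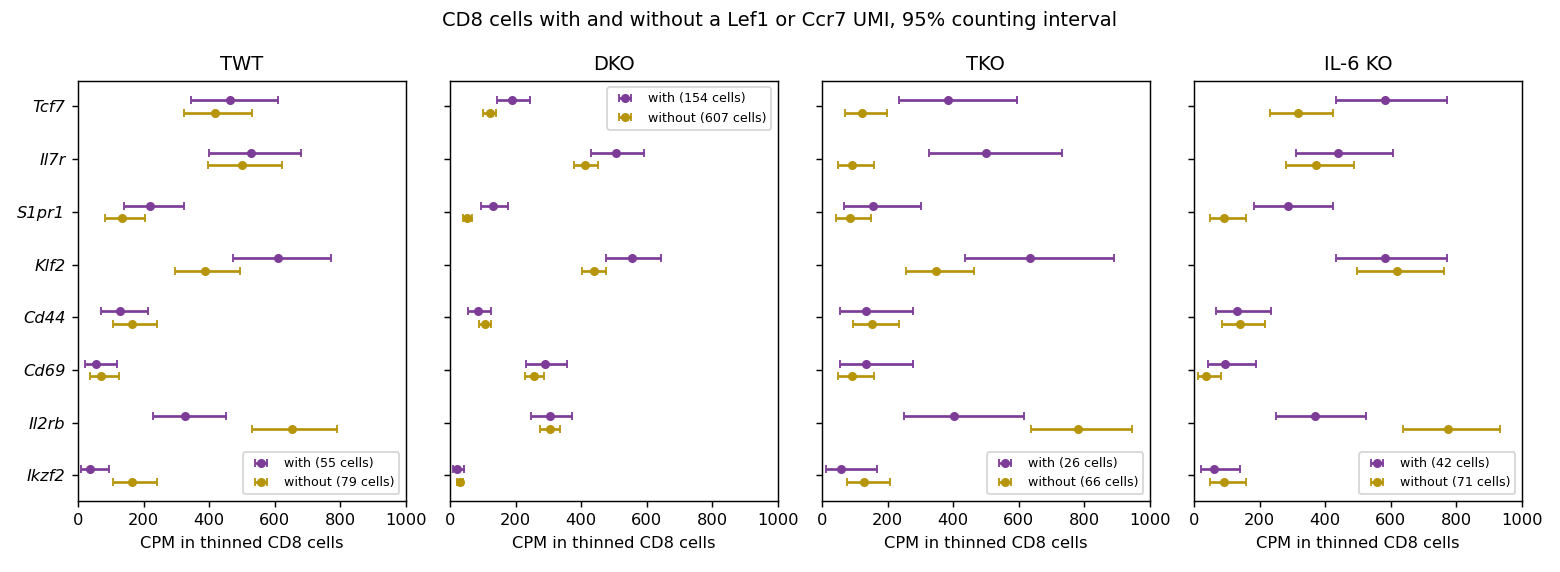
CPM of 8 genes in CD8 cells thinned to 2000 UMIs, for cells with (purple) and without (gold) a UMI of Lef1 or Ccr7 in each library, with exact 95% Poisson intervals. Il2rb is higher in the cells without such a UMI in TWT, TKO and IL-6 KO and level in DKO, and Il7r in TKO is at 327 to 733 CPM with and 47.0 to 159 CPM without.

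Outside the T cells, the genes differed in which other classes held them. Tcf7 had at most 3.4 CPM in B cells and at most 1.3 in monocytic cells, but 350.5 in TWT NK cells. Il7r and Lef1 were present in pro-B and pre-B cells, with 160 to 272 and 91.4 to 149 CPM in TWT, TKO and IL-6 KO, and both had 4.8 CPM in the 123 DKO cells of that gate. Il7r also had 277 to 305 CPM in plasmacytoid dendritic cells. Klf2 was present in every class, and in monocytic cells it had 333 CPM in TWT, 1131 in DKO, 410 in TKO and 317 in IL-6 KO. Over 34 combinations of class and library with at least 20 cells, the levels of Tcf7 (log2(CPM + 1)) were most like those of Zap70, Trbc1 and Prkcq (Pearson's r of 0.980, 0.978 and 0.976), which serve the T cell receptor, and those of Ikzf2 most like Icos and Gata3 (0.968 and 0.958). Il2rb was most like Sytl2, Gm2682 and Zap70 (0.983, 0.981 and 0.980). Lef1 was most like Impdh1, Zfpm1 and Tnfsf10 (0.945, 0.922 and 0.887), S1pr1 like Cd2, Scml4 and Ikzf3 (0.912, 0.894 and 0.888), and Ccr7 like Fam169b, Rhoh and Cxcr5 (0.907, 0.868 and 0.861). Cd44 was most like Fam129a, Ptpre and Stat3 (0.891, 0.861 and 0.860), Cd69 like Rhoh, Gimap1 and Ly6a (0.881, 0.866 and 0.865) and Il7r like Socs1, Fam92a and Gtf2i (0.876, 0.871 and 0.867). Klf2 had no close partner, with Ezr, Ankrd37 and Mif4gd at 0.726, 0.726 and 0.705. These points share libraries and differ in depth, so the values describe these cells only.

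**Figure D5:**
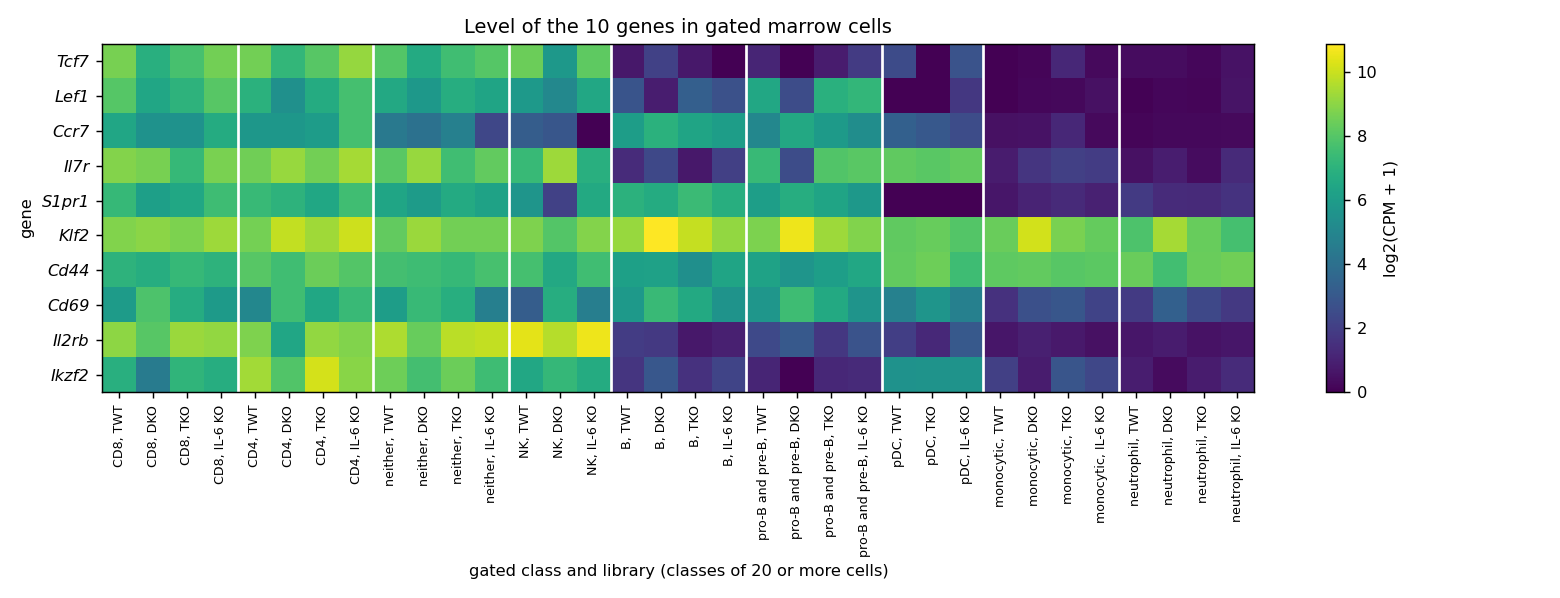
Level of the 10 genes, as log2(CPM + 1) on a color scale, in each gated class of at least 20 cells in each library. Tcf7, Il2rb and Ikzf2 are bright in T and NK cells and dark in B and myeloid cells, while Klf2 and Cd44 are present in every class and Klf2 is brightest in DKO B cells at 1887 CPM.

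Other genes of naive and quiescent T cells were lower in DKO CD8 cells than in TWT, with 10 of 14 measured called lower and 0 higher (median log2 ratio -1.13), beside 5.85% lower and 6.54% higher and a median of 0.07 over all genes. They included Nsg2 (110 CPM in TWT and 25.8 in DKO, 0.236-fold), Actn1, which crosslinks actin (114 and 31.8, 0.280-fold), the repressor Bach2 (64.0 and 19.3, 0.301-fold) and Foxo1, the factor that upholds Il7r and Klf2 (129 and 49.0, 0.379-fold). Against TKO 5 of 13 were lower in DKO (median -0.90), beside 4.92% and -0.03 over all genes, and between TKO and TWT 0 of 14 were called (median -0.30). In CD4 cells 3 of 7 measured were called lower in DKO than in TWT (median -0.76), beside 9.85% and 0.09 over all genes, Rflnb (0.419-fold), Actn1 (0.455-fold) and Foxp1 (0.482-fold), while Il6ra, the IL-6 receptor chain, was at 0.585-fold (0.262 to 1.25). The list also differed between IL-6 KO and TWT CD4 cells, with 3 of 8 higher in IL-6 KO and 0 lower (median 0.89), beside 3.71% higher and 0.09 over all genes.

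Of the other memory and effector genes, 7 of 20 measured were called higher and 0 lower in DKO than in TWT CD8 cells (median log2 ratio 0.87), beside 6.54% higher and a median of 0.07 over all genes. Gzmb, a granzyme of killer cells, had 17.1 CPM in TWT and 511 in DKO (29.9-fold, 17.1 to 58.0), with 125 in TKO and 15.3 in IL-6 KO. S100a4 had 98.1 and 620 CPM (6.31-fold), Lgals1, the gene of galectin-1, 235 and 808 (3.44-fold), and S100a6 1288 and 3611 (2.80-fold). Against TKO 4 of 21 were higher in DKO and 0 lower (median 0.32, beside 2.62% and -0.03 over all genes), and between TKO and TWT 4 of 21 were higher in TKO (median 0.49, beside 3.04% and 0.12). In CD4 cells 7 of 14 measured were higher and 1 lower in DKO than in TWT (median 1.04, beside 11.8% higher, 9.85% lower and 0.09 over all genes), led by the chemokine receptor Ccr2 (52.7 and 507 CPM, 9.63-fold), Gzmb (15.8 and 157, 9.90-fold, from 3 TWT UMIs), Anxa2 (195 and 648, 3.32-fold) and S100a6 (1544 and 4707, 3.05-fold). Monocytic cells also express S100a4, S100a6, Lgals1, Anxa2 and Ccr2, and the 5 monocytic markers (Csf1r, Ccr2, F13a1, Cx3cr1, Ms4a6c) summed to 117, 502, 230 and 127 CPM in CD8 cells and to 100, 1128, 140 and 92.4 CPM in CD4 cells (TWT, DKO, TKO, IL-6 KO). Without Ccr2, which T cells express too, they summed to 21.3, 267, 82.0 and 49.2 CPM in CD8 cells and to 47.4, 621, 12.7 and 10.3 CPM in CD4 cells. Of the CD8 cells 4, 73, 3 and 1, and of the CD4 cells 0, 6, 0 and 0, passed the monocytic gate, whose part in these levels was not tested.

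Few genes of activation and inhibition were measured, 4 of 23 in CD8 cells, where Jun was called higher in DKO than in TWT (27.0 and 56.5 CPM, 2.09-fold, 1.31 to 3.53) and Dusp2 (1.71-fold), Junb (1.31-fold) and Tox (0.859-fold) were not called (median 0.57). For the lists that follow too, the shares over all genes between DKO and TWT are 12.4% called with a median of 0.07 in CD8 cells and 21.6% with 0.09 in CD4 cells. In CD4 cells 1 of 5 measured was called, a share near that of all genes, with Tox lower in DKO (0.496-fold, 0.255 to 0.928), Dusp2 at 0.717-fold, Icos at 1.37-fold and Junb at 1.26-fold (median -0.32). Of the common gamma chain receptor genes, which carry the IL-2, IL-7 and IL-15 signal, 2 of 8 were called in CD8 cells (median 0.03), Cish higher (17.1 and 50.4 CPM, 2.96-fold) and Stat5b lower (52.6 and 24.4 CPM, 0.464-fold), while the feedback inhibitors Socs3 (1.82-fold) and Socs1 (1.69-fold) were not called. In CD4 cells 0 of 2 were called (median 0.21), with Il2rg at 1.74-fold and Jak1 at 0.776-fold. Of the regulatory T cell genes, 1 of 2 measured was called higher in DKO CD8 cells (median 1.97), the actin-capping gene Capg (12.8 and 119 CPM, 9.26-fold), which myeloid cells express too, and Tnfrsf18 was at 1.79-fold. In CD4 cells 3 of 5 were higher and 1 lower (median 1.51), with Capg (3.93-fold), Tnfrsf18 (2.87-fold) and Tnfrsf4 (2.85-fold) above and Izumo1r (0.459-fold) below TWT. TKO had 3 of 6 higher than TWT as well (median 1.08), against 9.65% of all genes called either way (median 0.09). DKO against TKO had 1 of 5 called, higher in DKO, a share near the 21.7% of all genes, of which 13.1% were higher. The median was -0.28, beside 0.09 over all genes, with Tnfrsf18 at 378 CPM in DKO and 459 in TKO.

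In the T cells with neither co-receptor, 4 of the 9 genes measured were called between DKO and TWT, against 13.5% of 3156 genes. Tcf7 and Il2rb were lower in DKO, as were 6.34% of all genes, and Il7r and Cd69 higher, as were 7.13%. Tcf7 had 247 CPM in TWT (216 to 281) and 100.4 in DKO (81.8 to 122), Il2rb 742 (688 to 799) and 327 (292 to 364), and Cd69 65.4 (50.1 to 83.8) and 162 (138 to 189). Il7r was higher, with 273 CPM in TWT and 587 in DKO (2.15-fold, 1.86 to 2.50), and Klf2, with 306 and 610.0 CPM (1.99-fold, 1.73 to 2.30), was just short of a call. Ikzf2 had 355 CPM in TWT, 199.7 in DKO, 348 in TKO and 181 in IL-6 KO, so the DKO and IL-6 KO intervals overlapped. This class is mixed, since 67 of 223 TWT, 48 of 245 DKO, 50 of 126 TKO and 132 of 226 IL-6 KO cells also passed the NK gate and 24, 28, 17 and 44 carried the γδ receptor gene Trdc.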

How the data were processed

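Single cells of mouse bone marrow were profiled with the 10x Genomics 3′ v3 kit. The authors aligned the reads to mm10 with Cell Ranger (3.0.2 in the matrix headers), and the deposited values are raw UMI counts (whole numbers) for each gene and barcode. The study's filter on barcodes was used (500 to 4000 genes found, mitochondrial UMIs not above 15%). Scrublet (scanpy 1.11.5) called 2.17% to 2.46% of all barcodes doublets, which were kept. Among CD8 cells the share was 5.88% in TWT, 8.10% in DKO, 7.37% in TKO and 3.42% in IL-6 KO. Among CD4 cells it was 8%, 9.52%, 8.33% and 0% in the same order. The automatic threshold of Scrublet failed in DKO, so 0.247, the median of the other libraries, was used there. UMIs were summed over the cells of a class and scaled to CPM of that sum. Sums have exact Poisson intervals, ratios exact conditional binomial intervals and shares Clopper-Pearson intervals (95%), all covering counting error only. Log2 ratios have a pseudocount of 1 CPM. Besides the T cell gate, B, NK and plasmacytoid dendritic cells had at least 3, and monocytic cells at least 5, UMIs of their markers, and neutrophils at least 5% of UMIs from S100a8, S100a9, Ngp, Camp, Ltf and Retnlg. With 1 library each, genotypes could not be tested against each other. The calling rule was tested on simulated data. Python 3.11.15, numpy 2.4.6, scipy 1.17.1, pandas 2.3.3 and matplotlib 3.10.9 were used.

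The 10 members and the gene lists were chosen with earlier results of these data known. Named besides them are, of each list, the 4 measured genes with the largest log2 ratio of DKO to TWT per cell type, the 3 genes most like each member (1 of them is not reported here), and Foxp3, Trdc, S100a8, S100a9, Diaph1 and Il6. Xist, Ddx3y and Gzmk were named after their values were seen. Alternatives varied the gates, filters, doublets, scaling, thinning, pseudocount, free RNA and count minimum. Sites and positions came from GENCODE M21 on GRCm38, the build of mm10.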

Additional observations from a re-analysis of the deposited data

How the results depend on the processing

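The counts of genes called were recomputed under 15 alternatives in CD8 cells and 16 in CD4 cells, of which leaving out the cells of the neutrophil gate and those of the NK gate were chosen after seeing the data. Of 124 counts, 103 stayed within 1.5 times the reported one. The CD8 counts for DKO against TWT (5 called) and DKO against TKO (4 called) stayed so in all 15. In CD8 cells Tcf7, Lef1, S1pr1, Ikzf2 and Cd69 kept their call between DKO and TWT in all 15, with log2 ratios from -1.85 to -1.66, -1.65 to -1.34, -1.31 to -1.05, -2.42 to -1.51 and 1.71 to 2.23, and Ikzf2 also against TKO, from -2.86 to -1.94. No called ratio changed sign.

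In CD8 cells TKO against TWT gave 2 calls in place of 1 with a T cell gate of 5 UMIs, 3 with 2 co-receptor UMIs, median-of-ratios size factors, thinning before gating or 200 genes as the only filter, and 0 without cells of other lineage gates. IL-6 KO against TWT gave 1 in place of 0 without cells of other lineage gates or of the NK gate, Ikzf2 in both. In CD4 cells DKO against TWT gave 2 in place of 6 with 2 co-receptor UMIs or thinning, where 5 and 3 genes were measured. DKO against TKO gave 1 in place of 3 with 2 co-receptor UMIs and 5 without cells of other lineage gates. TKO against TWT gave 1 in place of 0 with 2 co-receptor UMIs, without doublets, with size factors or with the mean of each cell's CPM, and 2 with free RNA subtracted. IL-6 KO against TWT gave 1 in place of 2 with a gate of 5 UMIs, without doublets or with thinning, and 4 without cells of the NK gate. Size factors moved the median of all genes in CD4 cells from 0.09 to 0.33 for DKO against TKO and from 0.09 to -0.10 for TKO against TWT, and the share of calls that were higher from 60.5% to 79.2% and from 52.5% to 19.8%. In CD8 cells they moved the median for TKO against TWT from 0.12 to -0.01 and that share from 77.0% to 56.6%, and the share for DKO against TKO from 34.7% to 46.2%. The cause of these moves was not tested. Thinning to 1000 in place of 2000 UMIs left 33 of 80 shares inside the interval of the reported share. Fewer UMIs per cell lower such shares by themselves, so this count does not bear on the differences between libraries. With 24 to 50 CD4 cells a library, a gene with under 30 UMIs in 2 libraries was not measured. No paired analysis was possible because each genotype has 1 library.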
